A study of Mus musculus with 28 samples.

Results

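The H1, H2A, H2B and H4 genes of the mouse Hist clusters are the replication-dependent histone genes other than those of H3. They were chosen by symbol alone (a Hist cluster number followed by h1, h2a, h2b or h4), which gave 58 of the 55450 genes in the expression table. There were 6 H1, 20 H2A, 19 H2B and 13 H4 genes. The Hist1 genes on chromosome 13 made up 47 of them, the Hist2 genes on chromosome 3 made up 7, the Hist3 genes on chromosome 11 made up 3, and Hist4h4 on chromosome 6 stood alone. GENCODE M21 lists 55 as protein-coding, and Hist1h2aj, Hist1h2al and Hist3h2bb-ps as pseudogenes.

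All 12 RNA-seq libraries came from C10, a line of mouse Pre-B cells derived from HAFTL cells that carries a C/EBPα-ER transgene, in which C/EBPα is fused to the estrogen receptor so that β-estradiol moves it into the nucleus. Cells were induced with 100 nM β-estradiol together with IL-3 and CSF-1 and took on macrophage features, with 3 biological replicates at each of 0h (not induced), 1h, 12h and 48h. The transgene was present at every time, and neither an estradiol-treated line without it nor time-matched uninduced cells were compared here. Values were the deposited TPM (a level per unit of transcript length, relative to all transcripts of the library). Of the 8 Pre-B markers checked, all 8 fell by 48h (their summed TPM went from 293 to 333 at 0h to 26.9 to 38.4 at 48h), and all 7 tested macrophage markers rose (7.40 to 10.1 at 0h, 252 to 326 at 48h). Summed TPM of 5 T cell markers was at most 0.21 at 0h and 48h, but 0.27 to 0.53 at 1h and 0.19 to 0.31 at 12h. Lck, the 1 tested T cell marker, was called higher at 1h (log2 fold change 1.76) and 12h (1.48) and not at 48h. Summed TPM of 5 erythroid markers was at most 0.11 at 0h and 48h. The 6 neutrophil markers summed to at most 0.18 at 0h, to 8.32 to 13.7 at 12h (with Camp and S100a8, the 2 tested, called higher) and to 1.33 to 3.35 at 48h.

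Core histones package DNA: an octamer of H2A, H2B, H3 and H4 forms the nucleosome, and the linker histone H1 binds where DNA enters and leaves it. The replication-dependent genes are transcribed mainly in S phase, when new DNA needs new nucleosomes. Their messages mostly lack a poly(A) tail and end instead just after a stem-loop that is bound by SLBP, which governs their processing, translation and decay. The libraries were made from total RNA after depletion of ribosomal RNA, so messages without a poly(A) tail could be sequenced.

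The stem-loop was searched for in the 100 bases after the stop codon, as a 6-base stem that starts with GG and pairs exactly around a 4-base loop. The bases of the loop were left free. It was found in 50 of the 55 coding genes (90.9%), against 127 of all 21752 coding genes (0.584%). The 50 genes held 7 spellings, the commonest of them in 30. The examples below show this commonest spelling in a gene of H1, H2A and H2B, and another in the most abundant H4 gene, with the stem-loop in capitals and 5 flanking bases on each side. They were read from the RefSeq assembly GRCm38.p6 at chr13:23764387-23764412 (plus strand, Hist1h1a), chr13:23534354-23534379 (plus strand, Hist1h2af), chr13:21722501-21722526 (plus strand, Hist1h2bm) and chr13:21750145-21750170 (minus strand, Hist1h4k).
Hist1h1a: ccaacGGCTCTTTTCAGAGCCaccaa
Hist1h2af: ccaaaGGCTCTTTTCAGAGCCaccac
Hist1h2bm: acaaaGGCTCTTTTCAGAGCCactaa
Hist1h4k: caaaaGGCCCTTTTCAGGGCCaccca
The 5 coding genes in which none was found were Hist1h2an, Hist1h2bp, Hist1h2bq, Hist1h2br and Hist2h2be. The search followed only the stop codon of the longest annotated coding sequence of a gene. That sequence gives 138 residues for Hist1h2bp and 134 for Hist1h2bq and Hist1h2br, against 126 for Hist1h2bg. Other annotated stops of Hist1h2bp, Hist1h2bq and Hist1h2br were not searched. For Hist1h2an (130 residues) and Hist2h2be (126 residues) the search was limited to exact pairing within 100 bases. The 5 genes are therefore not shown to lack a stem-loop.

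H2A and H2B genes lay in 14 divergent pairs with 172 to 305 bases between their annotated starts (median 246). Promoters (250 bases before to 50 after the RefSeq start) were found for 52 members. CCAAT, read on both strands, was in 43 of them (82.7%, against 37.9% of all 27025 promoters), which were all the H1, H2A and H2B promoters and 3 of 12 H4 promoters. TATAAA, also read on both strands, was in 31 (59.6%, against 14.2% of all). The octamer ATTTGCAT or its complement was in 13 (25%, against 1.75% of all), 7 of them of H2A and 6 of H2B. The windows of divergent genes overlap, so a match can count for both genes of a pair, whichever strand it reads on. The stretches below show the bases before the start of Hist1h1a (GRCm38.p6, chr13:23763418-23763667, plus strand) and the whole stretch between the divergent starts of Hist1h2ae and Hist1h2bg (chr13:23571221-23571399, plus strand, so Hist1h2bg reads to the right), the first for the most abundant H1 gene and the second for a pair in which both genes fell. Capitals mark CCAAT or its complement, TATAAA and, in the second stretch, the octamer. A match of letters describes the sequence and is not evidence of binding.
Hist1h1a: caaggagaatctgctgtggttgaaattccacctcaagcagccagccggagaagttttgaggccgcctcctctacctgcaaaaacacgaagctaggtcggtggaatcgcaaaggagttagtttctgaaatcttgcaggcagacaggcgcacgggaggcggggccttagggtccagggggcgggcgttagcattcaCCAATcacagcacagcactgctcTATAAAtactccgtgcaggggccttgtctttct
Hist1h2ae and Hist1h2bg: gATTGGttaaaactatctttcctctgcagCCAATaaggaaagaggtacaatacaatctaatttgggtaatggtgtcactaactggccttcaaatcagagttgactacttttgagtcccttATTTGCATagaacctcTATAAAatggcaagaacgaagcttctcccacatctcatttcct

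The 58 genes had a summed TPM that was lower at 12h than at 0h and lower again at 48h. Their summed TPM was 4253, 4607 and 4789 in the 0h libraries, 5700, 4934 and 5812 after 1h, 988, 1218 and 1650 after 12h, and 122, 154 and 315 after 48h. The 0h and 1h libraries lay above every 12h library, and these above every 48h library. The mean at 48h was 4.33% of that at 0h. A mean TPM above 10 was reached by 47 genes at 0h, 48 after 1h, 35 after 12h and 6 after 48h. In bulk RNA, fewer cells expressing a gene and less of its RNA per cell cannot be told apart.

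**Figure D1:**
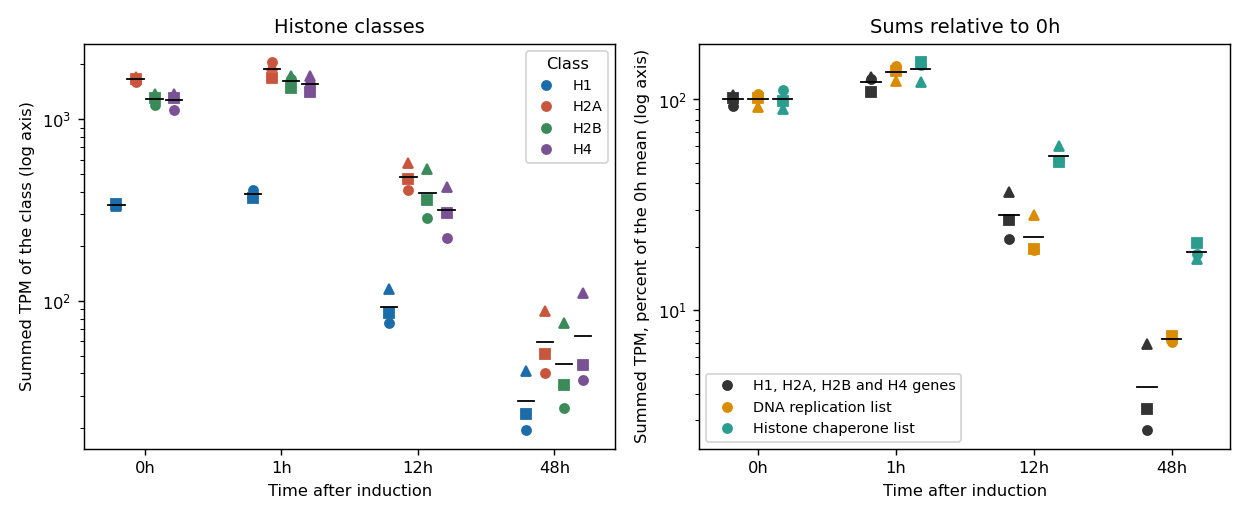
Summed TPM of the H1, H2A, H2B and H4 genes by time of induction (left, log axis) with 1 point per library, marked by replicate number, and black bars for the mean of 3 libraries, beside the percent of the 0h mean (right, log axis) for all 58 genes and for lists of DNA replication and histone chaperone genes. Every class was highest at 0h and 1h, and at 48h the 58 genes summed to 4.33% of 0h, the DNA replication list to 7.33% and the chaperones to 18.9%.

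TPM are relative to the rest of the library, and a pair of genes took 70.3% to 82.9% of the TPM of every library. The median log2 difference over all 16415 tested genes against 0h was 0.59 after 1h, 0.34 after 12h and -0.18 after 48h. Log2 changes of the class sums are therefore given below relative to it, while percents of the 0h sum are of TPM without this adjustment. No sum over the histone genes was tested. At 48h the summed TPM on the log2 scale, relative to all genes, was -3.48 ± 0.32 (SE) for H1, -4.69 ± 0.33 for H2A, -4.81 ± 0.47 for H2B and -4.31 ± 0.50 for H4. At 12h the same values were -2.23 ± 0.19, -2.13 ± 0.15, -2.10 ± 0.27 and -2.39 ± 0.28. These errors are of the difference in log2 summed TPM before the all-gene median was taken off, which was treated as fixed. By cluster, the percent of the 0h sum left at 48h was 4.14% for Hist1, 5.01% for Hist2, 10.5% for Hist3 and 7.03% for Hist4h4, so the fall was not restricted to 1 chromosome. Without 48h replicate 3 the same values were 2.71% for Hist1, 4.26% for Hist2, 9.35% for Hist3 and 3.02% for Hist4h4, so Hist2 and Hist4h4 changed their order.

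Each gene was tested with limma on log2(TPM + 0.1), and a gene was called when its Benjamini-Hochberg adjusted p was under 0.05 and its fold change over 2. Of the histone genes, 55 passed the filter of a mean TPM of at least 0.1. The 3 that did not were Hist1h1t, Hist1h2aa and Hist1h2ba, histones known from the testis, with at most 0.14 TPM in any library. After 1h none of the 55 was called lower (1.08% of all genes tested were) and none higher (16.7% of all), and none had an unadjusted p under 0.05 in this fit (6438 of all genes had), nor was any called under any of the 24 alternative settings. Their median log2 fold change was 0.30, and 48 of 55 lay below the all-gene median of 0.59. That lag of the median, -0.29, shrank to -0.02 with a pseudocount of 1 and to -0.07 with no filter.

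After 12h, 45 of the 55 were called lower, against 5.75% of all genes, and none higher, against 17.7%. Their median log2 fold change was -1.94 (all genes 0.34). After 48h, 49 were called lower, against 23.1% of all genes, and 1 higher, against 13.5%, with a median of -4.90 (all genes -0.18) and quartiles of -6.00 and -3.49. All 5 tested H1 genes, 17 of 19 H2A, 15 of 18 H2B and 12 of 13 H4 genes were called lower at 48h. From 1h to 12h, 47 were called lower (10.6% of all genes) and none higher (5.49% of all). From 12h to 48h, 45 were called lower (23.8% of all) and 1 higher (3.55% of all), so most genes went on falling after 12h. These comparisons share libraries and are not independent. The count at 12h ranged from 21 to 48 over the settings tried, with 21 when a log2 fold change beyond 2 was asked for, while the count at 48h was 49 or 50 in every setting.

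**Figure D2:**
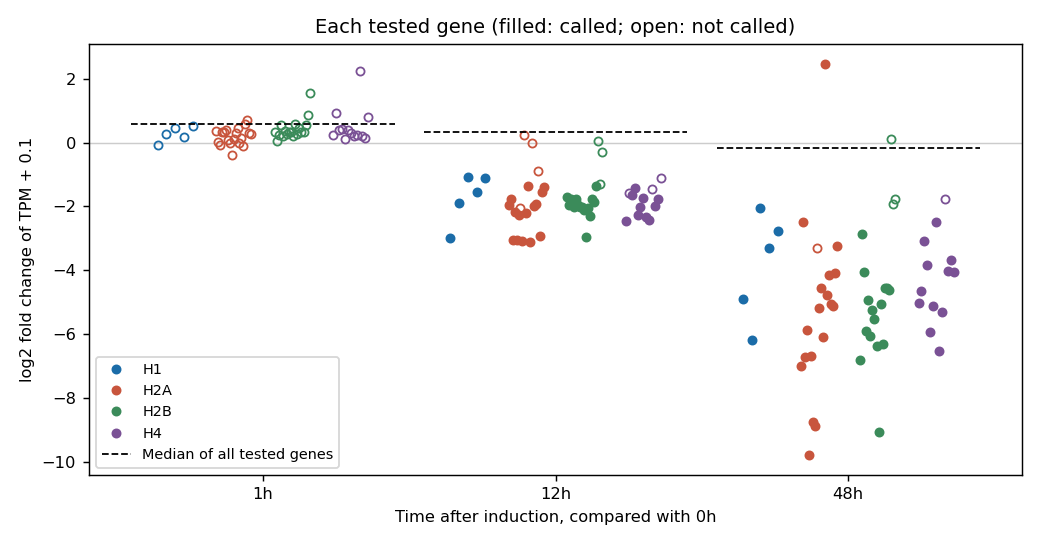
Log2 fold change against 0h of the 55 tested histone genes after 1h, 12h and 48h, on the log2(TPM + 0.1) scale, with 1 point per gene coloured by class (filled where called, open where not) and a dashed line for the median of all tested genes. The median of the histone genes was 0.30 after 1h, -1.94 after 12h and -4.90 after 48h, and the 1 filled point above 0 is Hist1h2ao. Where a group was listed at 0, the height of a point is set by the 0.1 added.

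Each of the 6 genes for linker histones encodes a protein of its own. Hist1h1a (H1.1) was the most abundant, with 146, 152 and 140 TPM at 0h, 146, 133 and 135 after 1h, 17.6, 18.3 and 19.7 after 12h, and 4.59, 4.46 and 5.39 after 48h. Its 12h libraries lay far below those of 0h and 1h and above those of 48h, with no overlap. The log2 fold change was -2.97 ± 0.13 (SE) at 12h (adjusted p = 5.2e-08) and -4.90 ± 0.13 at 48h (adjusted p = 3.32e-10). Hist1h1b (H1.5) had 79.8, 77.3 and 77.2 TPM at 0h and 16.3, 20.2 and 28.3 at 12h, and then 0.92, 0.56 and 1.83 at 48h. It had the steepest late fall of the H1 genes, and its change from 0h to 48h was -6.16 ± 0.32 on the log2 scale (adjusted p = 5.64e-08).

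Hist1h1e (H1.4) and Hist1h1c (H1.2) fell less. Hist1h1e had 55.2, 47.7 and 57.2 TPM at 0h and 5.62, 7.10 and 11.9 at 48h, with no overlap (-2.75 ± 0.26, adjusted p = 5.17e-06). Hist1h1c had 48.9, 54.9 and 48.3 TPM at 0h, 71.1, 62.4 and 72.9 after 1h, 18.7, 22.6 and 31.8 after 12h, and 7.54, 11.2 and 20.9 after 48h. Its highest 48h library lay inside the range of the 12h libraries, and the fall from 12h to 48h (-0.97, adjusted p = 0.0304) was short of the fold asked for. From 0h to 48h it fell by 2.06 ± 0.31 (SE) on the log2 scale (adjusted p = 0.00022). At 12h Hist1h1c (-1.09, adjusted p = 0.0215) and Hist1h1e (-1.11, adjusted p = 0.00747) were called lower, but Hist1h1c was not called without 0h replicate 2 (-1.03), 0h replicate 3 (-1.12), 12h replicate 1 (-0.92) or 12h replicate 2 (-1.05), nor Hist1h1e without 12h replicate 1 (-0.98).

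The make-up of H1 TPM therefore shifted as its sum fell to 8.35% of the 0h mean. Hist1h1a made up 43.3% ± 1.21 (SD, n = 3) of H1 TPM at 0h, 35.7% ± 1.06 after 1h, 20.5% ± 3.24 after 12h and 18.5% ± 5.28 after 48h. Hist1h1c made up 15.0% ± 0.92 at 0h and 26.1% ± 1.31 at 12h, and was the largest part at 48h with 38.9%, 46.5% and 50.8% in the 3 libraries. Hist1h1e went from 15.8% ± 1.67 to 29.2% ± 0.36, and Hist1h1b from 23.2% ± 0.46 to 3.84% ± 1.31. For these 4 genes the 0h and 48h libraries did not overlap. Hist1h1d (H1.3) was a small part of H1 TPM throughout, with 2.66% ± 0.09 at 0h and 3.09% ± 0.57 at 48h. TPM divide by annotated length, and the longest transcript of Hist1h1d has 7425 bases. Those of Hist1h1e and Hist1h1c have 1930 and 1560, and those of Hist1h1b and Hist1h1a 743 and 741. The shares therefore depend on these lengths and do not rank the genes by number of messages. H1 rose from 7.44% ± 0.52 of the TPM of all 58 genes at 0h to 14.8% ± 1.55 at 48h, because the other classes fell more.

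**Figure D3:**
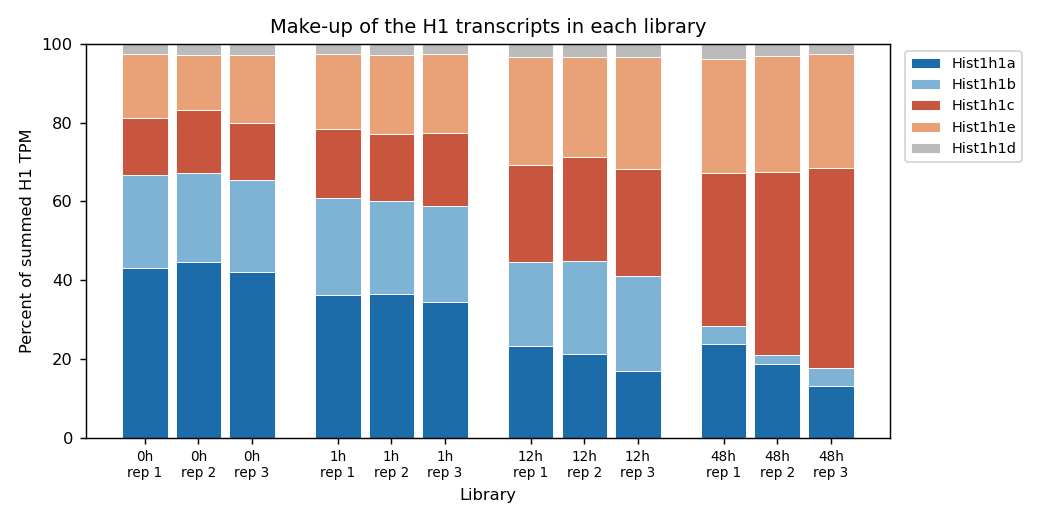
Percent of summed H1 TPM taken by 5 H1 genes in each of the 12 libraries, as stacked bars grouped by time of induction (Hist1h1t, at or near 0, is not drawn). Hist1h1a went from a mean of 43.3% at 0h to 18.5% by 48h and Hist1h1b from 23.2% to 3.84%, while Hist1h1c went from 15.0% to 45.4% and Hist1h1e from 15.8% to 29.2%.

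H2A pairs with H2B in the nucleosome, and 9 of the 18 coding H2A genes encode 1 identical protein. The most abundant, Hist2h2aa1, had 275, 302 and 289 TPM at 0h and 13.8, 21.3 and 14.2 at 48h (log2 fold change -4.15 ± 0.18, adjusted p = 1.37e-08). No 100-base window of its exons is unique to it, so single-end reads of that length could not be told from its copies. With its near-identical copy Hist2h2aa2 it summed to a mean of 443 TPM at 0h, 160 after 12h and 23.4 ± 6.25 (SD, n = 3) after 48h. Hist1h2al, annotated as a pseudogene but 80.8% unique, had 213, 221 and 234 TPM at 0h, 73.4, 88.2 and 101 after 12h, and 5.59, 9 and 16.8 after 48h, again without overlap (log2 fold change at 48h -4.54 ± 0.31, adjusted p = 4.54e-07).

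Some H2A genes were listed at 0 by 48h. Hist1h2af had 83.22, 84.37 and 95.97 TPM at 0h and 8.27, 12.1 and 11.6 after 12h, and by 48h every library listed it at 0 (adjusted p = 3.53e-11, with no fold given). Hist1h2ai had 104, 83.7 and 138 TPM at 0h and 0, 1.10 and 0 at 48h (adjusted p = 2.33e-06). Just 20.7% of the windows of Hist1h2af are unique, and RSEM can move reads between copies, so a 0 here is an estimate for the copy and not for the protein. Hist1h2ah had 192, 176 and 176 TPM at 0h and 37.9, 61.3 and 35.7 at 12h, without overlap, yet was not called at 12h (-2.05, adjusted p = 0.183). The model estimates 1 spread per gene over all times, and that includes its 48h libraries of 0, 0.05 and 5.02 TPM.

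Hist1h2ao, which encodes the shared H2A protein, was the 1 gene called higher at 48h. It was listed at 0 in all 9 libraries of 0h, 1h and 12h and had 2.47, 0.56 and 0 TPM at 48h (adjusted p = 0.0404), so its 48h libraries overlapped the others. The call was lost in 16 of the 24 settings tried, including without 48h replicate 1 and without 48h replicate 2, and no fold is given against libraries listed at 0. Hist1h2ao shares 92.7% of its windows with Hist1h2ap, and their summed level went from 175 ± 6.23 TPM (SD, n = 3) to 8.08 ± 3.29 by 48h, which is 4.62% of the 0h sum. The pseudogene Hist1h2aj, with 91.7% of its windows in Hist1h2ai, had 14.9, 69.2 and 0 TPM at 0h and was not called (adjusted p = 0.445).

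H2B was led by Hist2h2bb, with 339, 366 and 361 TPM at 0h, 469, 429 and 434 after 1h, 119, 131 and 175 after 12h, and 10.5, 13.9 and 20.3 after 48h. It was the highest of all 58 genes at 0h, and fell by 4.62 ± 0.23 (SE) on the log2 scale at 48h without overlap (adjusted p = 3.35e-08). It has no unique window either, since all its windows lie also in Gm20628, an antisense model that overlaps it, and 45.4% in Gm42743. Hist1h2bl had 113, 111 and 130 TPM at 0h and 0.51, 1.33 and 3.18 at 48h (-6.37 ± 0.49, adjusted p = 1.02e-06). Hist1h2bg, whose promoter stretch is printed above, had 115, 120 and 115 TPM at 0h and 1.98, 2.73 and 9.31 at 48h (-4.94 ± 0.46, adjusted p = 5.12e-06), and its divergent partner Hist1h2ae had 14.5, 21.6 and 21.9 and then 0.26, 0 and 0.88.

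Hist1h2bm, 93.4% unique, had 48.0, 51.0 and 60.2 TPM at 0h and 3.77, 7.06 and 11.3 after 12h, and by 48h every library listed it at 0 (adjusted p = 2.33e-09). In contrast Hist1h2bc, known also to make a polyadenylated message, fell from 19.9, 19.9 and 26.0 TPM to 2.34, 3.24 and 3.31 (-2.85 ± 0.24, adjusted p = 2e-06), and its share of H2B TPM went from 1.70% ± 0.19 at 0h to 7.63% ± 2.82 at 48h. Hist2h2be, known for expression outside S phase, lay between 0.04 and 0.40 TPM in all 12 libraries, with no direction (0.11 ± 0.49 at 48h, adjusted p = 0.891). The other H2B genes not called at 48h were Hist3h2ba (-1.94, adjusted p = 0.0734) and the pseudogene Hist3h2bb-ps (adjusted p = 0.11), which was listed at 0 in every 48h library, both at or under 2.01 TPM throughout.

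H4, which forms the core tetramer with H3, is made from 13 genes that encode 1 identical protein of 103 residues. Hist1h4k was the most abundant, with 279, 345 and 311 TPM at 0h, 34.5, 64.9 and 86.9 after 12h, and 5.02, 4.13 and 22.5 after 48h (log2 fold change at 48h -5.30 ± 0.53, adjusted p = 8.51e-06). The times did not overlap, and 48h replicate 3 stood above the other two. Hist1h4n had 224, 246 and 234 TPM at 0h and 8.44, 10.9 and 31.7 at 48h (-4.03 ± 0.38, adjusted p = 5.69e-06). Hist1h4h had 132, 144 and 162 TPM at 0h and 1.55, 5.41 and 8.30 at 48h (-5.10 ± 0.48, adjusted p = 4.96e-06).

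The smallest called fall of an H4 gene was that of Hist1h4i, with 9.73, 17.2 and 22.9 TPM at 0h, 2.86, 3.92 and 9.03 after 12h, and 1.54, 2.38 and 5.48 after 48h (-2.48 ± 0.51, adjusted p = 0.00193). Its 12h and 48h libraries overlapped, and from 12h to 48h it was not called (-0.75, adjusted p = 0.281). Hist1h4m was the H4 gene not called at 48h (-1.76 ± 2.39, adjusted p = 0.596), with 10.0, 0 and 32.5 TPM at 0h and 3.81, 2.07 and 0 at 48h. It shares 88.1% of its windows with Hist1h4n. Within H4 TPM, Hist1h4k went from 24.6% ± 1.89 at 0h to 14.4% ± 5.55 at 48h and Hist1h4n from 18.6% ± 1.40 to 25.4% ± 2.94.

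Histone genes share sequence with near-identical copies and with overlapping models of other genes. Of the 58 genes, 14 have over 90% unique 100-base windows, 23 have under 50% and 3 have none. Among the tested genes with over 90%, 10 of 13 were called lower at 48h (23.1% of all genes were), with a median log2 fold change of -3.68. Among those with under 50%, 20 of 23 were called lower, with a median of -5.06. The more unique genes thus fell less at the median, and the part of shared sequence in this difference was not tested. The 14 divergent pairs held 14 H2A and 14 H2B genes, and in the pair of Hist2h2ac and Hist2h2be the first was called lower at 48h (-4.08, from a mean of 67.2 TPM) and the second was not (0.11). Other genes between the first and the last Hist1 gene of the main cluster did not all fall: of 8 tested protein-coding ones, none was called lower at 48h (23.1% of all genes were) and 2 were higher (13.5% of all), Vmn1r197 and Vmn1r207-ps. Of all 28 other tested genes there, 12 (42.9%) were called lower, and 11 of these 12 overlap a histone gene. The 12 include 8 short models inside H2A genes that had the same values as one another in every library. These 8 are not separate measurements, so the percent is not a count of independent genes.

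Replicate 3 had the highest summed TPM of the 58 genes at every time, most so at 48h. Summed TPM in 48h replicate 3 was 1.90 times the mean of the other two for H1, 1.92 times for H2A, 2.51 times for H2B and 2.73 times for H4, and 40 of the 55 tested genes (72.7%) were highest there, against 41.6% of all genes. The same ratio was 1.011 for the DNA replication list, 0.89 for the chaperones, 1.20 for macrophage markers, 1.32 for Pre-B markers and 1.55 for the replacement variants of H1 and H2A. TPM outside the 20 most abundant genes summed to 94692 in 48h replicate 3, against 58343 and 65622 in replicates 1 and 2. The median-of-ratios factor (the median over genes of TPM relative to the gene's geometric mean over libraries) was 0.752 in 48h replicate 3. It was 0.627 and 0.717 in replicates 1 and 2. Without replicate 3, the 58 genes summed to 3.03% of 0h instead of 4.33%. The part of these library differences in the histone sums was not tested.

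Some histone genes have an annotated transcript that runs over 300 bases past the stem-loop, and as a group these kept a larger percent of their 0h TPM. The grouping was made after the values were seen and gets no test. In 14 tested genes over 300 exon bases lay past the stem-loop (330 to 4884 bases). All 14 were called lower at 48h (23.1% of all genes were), with a median log2 fold change of -3.27. In 33 genes there were 0 to 169 such bases and the median was -5.19. The 5 coding genes in which no stem-loop was found are in neither group, and their median was -4.55. At 12h the medians were -1.68 and -2.03, and at 1h 0.28 and 0.28. The first group's share of the TPM of all 58 genes was 9.23% ± 0.32 (SD, n = 3) at 0h, 11.7% ± 0.16 after 12h and 24.3% ± 2.37 after 48h, and 11.1% of its 0h sum was left at 48h, against 3.41% for the second group.

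The group with long ends held Hist1h1c, Hist1h1d, Hist1h1e, Hist3h2a, Hist1h2ac, Hist1h2bh, Hist1h2be, Hist1h2bc, Hist1h4j, Hist1h4i, Hist1h4d, Hist1h4c, Hist2h4 and Hist4h4. It was not uniform, since Hist1h4j (-6.52 ± 0.46) and Hist1h2bh (-6.07 ± 0.41) fell by more than the median of genes without such an end. Across the 47 genes, which share libraries and sequence, the bases past the stem-loop had a Spearman correlation of 0.53 with the change at 48h. The genes with long ends also had lower TPM at 0h (median 19.3, against 96.5), while at 48h the median TPM were close (1.98, against 2.11). TPM are per length, so a long annotated end lowers them, and 0h TPM correlated with the change at -0.39. Whether messages of these genes were polyadenylated was not measured.

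**Figure D4:**
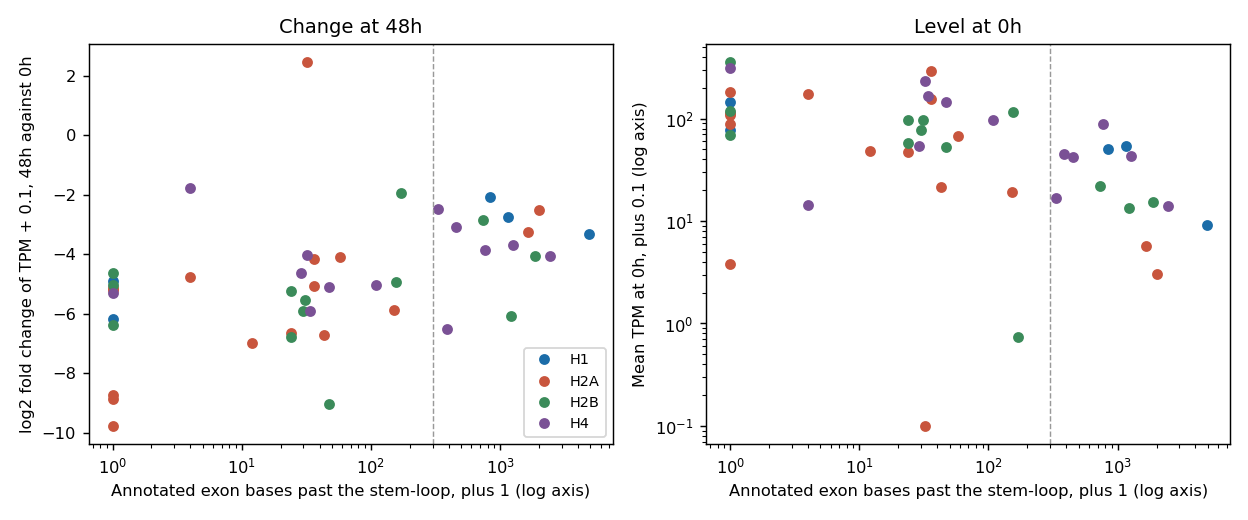
For the 47 tested histone genes with a stem-loop, the log2 fold change of TPM + 0.1 at 48h against 0h (left) and the mean 0h TPM plus 0.1 (right, log axis), each by the number of annotated exon bases past the stem-loop plus 1 (log axis), with 1 point per gene coloured by class and a dashed line at 300 bases. To the right of the line the 14 genes had a median change of -3.27 and a median 0h level of 19.3 TPM, and to the left the 33 had -5.19 and 96.5 TPM, with overlap between the groups.

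The factors that switch on the histone genes at the start of S phase include NPAT, which is phosphorylated by cyclin E with CDK2. Of 10 genes of this list, 6 were called lower at 48h (23.1% of all genes were) and none higher (13.5% of all), with a median of -1.40. Ccne2 had 5.27, 2.79 and 2.74 TPM at 0h, 10.8, 11.8 and 8.69 after 1h and 0.06, 0.06 and 0.03 after 48h, below every earlier library (at 48h -4.56 ± 0.33, adjusted p = 7.15e-07). Ccne1 (-2.75), Cdk2 (-2.19) and Casp8ap2 (FLASH, a factor of the histone locus body, -1.69) were called lower too. Npat itself had 1.98, 1.61 and 0.97 TPM at 0h and 1.16, 0.93 and 0.67 at 48h, with overlap (-0.64 ± 0.31, adjusted p = 0.124), and Hinfp, an activator of H4 genes, did not pass the test (-0.03, adjusted p = 0.98).

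Of 13 tested genes for processing and decay of histone messages, 10 were called lower at 48h (23.1% of all genes were). In the same list 1 was called higher (13.5% of all), and the median was -1.28. With the median-of-ratios or quantile scaling 5 were called lower, and with totals rescaled 6. Slbp had 15.0, 12.1 and 10.5 TPM at 0h, 25.8, 25.3 and 22.7 after 1h, 5.09, 2.92 and 6.31 after 12h, and 4.41, 3.80 and 2.54 after 48h. It was below 0h by 12h without overlap (-1.43 ± 0.28, adjusted p = 0.00295) and stayed so at 48h (-1.80 ± 0.28, adjusted p = 0.000297), while the histone genes themselves went on to -4.90 at the median. Cstf2 of the cleavage complex fell most (-2.57), and Mif4gd (SLIP1, a translation partner of SLBP) was the 1 called higher (1.20), a call lost without 0h replicate 1 (0.81) or 48h replicate 3 (0.94). Lsm11, of the U7 particle that cuts histone messages, had 0.45, 0.56 and 0.44 TPM at 0h and 0.09, 0.12 and 0.24 at 48h (-1.26, adjusted p = 0.0263), and Eri1, a nuclease of their decay, had 3.90, 3.61 and 1.88 and then 1.74, 1.69 and 0.78 (-1.11, adjusted p = 0.0212). Both were called lower without overlap between 0h and 48h, but Lsm11 was not called without any 1 of the 0h libraries (-1.17 to -1.32), 48h replicate 1 (-1.09) or 48h replicate 2 (-1.19), nor Eri1 without 0h replicate 1 (-0.93), 0h replicate 2 (-0.98) or 48h replicate 3 (-0.77).

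The histone chaperones carry new histones to DNA. All 12 were called lower at 48h (23.1% of all genes were), with a median of -2.60. Among them were Nasp, which binds H1 and H3-H4 (11.2 to 12.5 TPM at 0h, 0.99 to 1.26 at 48h, -3.26), and Asf1b, an H3-H4 chaperone (-4.29). The smallest fall was that of Nap1l4, an H2A-H2B chaperone (-1.23), which was not called with median-of-ratios scaling (-0.82). At 12h 5 of the 12 were called lower (5.75% of all genes were), and 10 with median-of-ratios scaling. Of 29 DNA replication genes, 26 were called lower at 12h (5.75% of all) and 28 at 48h (23.1% of all). The median of this list at 48h was -4.14, with Lig1 (-7.01), Rrm2 (-6.38) and Pcna (-3.34) as examples. At 48h Gins4 was the exception (-0.85, and -1.04 and called without 48h replicate 1).

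Of 6 tested replacement variants of H1 and H2A, whose genes lie outside the Hist clusters, 4 were called lower at 48h and 1 higher. Of all genes, 23.1% were called lower and 13.5% higher. H2afx had 41.2, 44.8 and 50.3 TPM at 0h and 0.19, 0.43 and 0.83 at 48h (-6.44 ± 0.37, adjusted p = 1.11e-07). H1f0, the linker histone known from differentiated and resting cells, had 1.57, 1.56 and 1.35 TPM at 0h and 4.59, 4.95 and 5.26 at 48h (1.66 ± 0.19, adjusted p = 2.76e-05), above every 0h library. It stayed below the 48h level of Hist1h1c in all 3 libraries.

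Promoter Capture Hi-C lists contacts of promoters with other DNA fragments. The 4 deposited lists each pool 2 replicates, so they have no error. The starts of 50 histone genes lay on 34 fragments. Interactions with these numbered 509 of 138769 at 0h (0.367%), 407 of 137836 at 1h (0.295%), 318 of 131598 at 12h (0.242%) and 423 of 144072 at 48h (0.294%). The number was lowest at 12h and rose again at 48h, when the summed TPM was lowest. Of the 0h interactions 54.0% were listed at 48h, against 55.9% of all interactions.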

How the data were processed

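RNA-seq of 12 libraries was analysed. The authors depleted ribosomal RNA, made unstranded single-end libraries, trimmed with Trim Galore 0.6.2, mapped with HISAT2 2.1.0 to mm10 and deposited RSEM TPM. All 55450 gene identifiers matched GENCODE M21. TPM keep no depth, so precision rests on the spread of 3 replicates. The Promoter Capture Hi-C lists were filtered by the authors at a CHiCAGO score of 5. The deposited score was used at 0h for an alternative, and the whole numbers in the other lists were not used. Hi-C files were not used here. The authors tested counts with DESeq2, which were not analysed here.

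Genes averaging 0.1 TPM or more over the 12 libraries (16415) were fitted with limma 3.58.1 (R 4.3.3) on log2(TPM + 0.1), with all 12 libraries and 4 times in 1 model, an eBayes trend and Benjamini-Hochberg adjustment over all genes. Calls needed an adjusted p under 0.05 and a fold change over 2, as in the paper's Methods. For low genes a fold change moves with the 0.1 added, so the text gives none against a group listed at 0. Since the kit does not mark strand, reads of overlapping genes cannot be told apart, and 24 members share exon bases with another gene.

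Members, lists and tests were chosen with earlier results of these data known. Genes named are the 3 most abundant of each class, the 3 lowest and 3 highest changes at 48h among members averaging 1 TPM, those called higher, the testis and polyadenylated members, those not called and, of the pathway lists, 12 genes plus each list's largest and smallest change. Others named, such as Hist1h4j and Hist1h2bh, were chosen after their values were seen. The fit was first tested on simulated data with known changes. Same-numbered replicates had deviations that correlated between -0.01 and 0.26, with 7 of 18 over 0.1. Replicates of different numbers at different times correlated between -0.18 and 0.11. Replicate 3 libraries correlated positively with one another (0.07 to 0.26) and negatively with every library of another number at other times. What set replicate 3 apart was not tested. Numbers were not taken as pairs in the main fit, and a block on replicate number was used as an alternative. Other steps used Python 3.11.15, numpy 2.4.6 and pandas 2.3.3. Alternatives varied the pseudocount, filter, scaling, trend, libraries, block and thresholds.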

Additional observations from a re-analysis of the deposited data

How the results depend on the processing

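The direction of every call named was kept in all settings tried, and of 1798 values for named genes 58 lost their call and 4 gained one. The count of histone genes called lower was 49 or 50 at 48h, 33 to 49 from 1h to 12h and 38 to 47 from 12h to 48h. At 12h it was 45, and 31 to 47 when 1 library was left out, and 21 with a log2 fold change beyond 2. The 1 gene called higher at 48h, Hist1h2ao, was not called (0) with a pseudocount of 0.01 or 1, no filter, a mean TPM of at least 1, or the 6 libraries compared, and from 12h to 48h also not (0) under the 3 other scalings. Leaving out 1 library gave 0 to 1 in both comparisons. At 1h the H1 sum relative to all genes (-0.39) was -0.48 with median-of-ratios scaling, -0.24 with quantile normalization and -0.49 with totals rescaled after removing the 20 most abundant genes. With quantile normalization the 1h values of H2A (-0.40), H2B (-0.25) and H4 (-0.28) were -0.14, -0.0455 and -0.0306. The cause of these differences was not tested. The median change at 48h minus that of all genes, -4.72, was -4.15 with a pseudocount of 1. At a CHiCAGO score of at least 10 the histone fragments held 0.601% of 0h interactions. Allowing 10 kb, 86.8%, 79.6% and 85.5% of 0h interactions were listed at 1h, 12h and 48h.

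With the replicate number as a block (replicate block), 46 genes were called lower at 12h, 49 at 48h, 47 from 1h to 12h and 44 from 12h to 48h, and no count moved by over 1.5 times. Depth is unknown, so values near 0 carry no stated precision.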

Other observations

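GENCODE M21 places 19 short miRNA models inside 19 of the H2A genes, and the expression table gives them TPM of their own. Summed over the models, TPM were 1240 ± 145 (SD, n = 3) at 0h, 1487 ± 141 after 1h, 536 ± 38.8 after 12h and 93.9 ± 2.34 after 48h. A set of 8 of these models had the same values as one another in every library. So did Gm44341, Gm47311 and Gm47313, each with 176.5, 206.84 and 238.61 TPM at 0h and 20.2, 19.49 and 16.52 at 48h. The sums over the models therefore count some values more than once. The models made up 42.8% of the TPM of H2A genes and models together at 0h and 62.1% at 48h. With the models added, H2A summed to 2894 ± 205 TPM at 0h and 154 ± 24.7 at 48h, which is 5.31% of 0h instead of 3.61%. TPM divide by length and these models are short, so their values are not on a footing with those of the H2A genes, and their part in the H2A levels was not tested.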
